A study of Mus musculus with 8 samples.

Results

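Transcription factors of the developmental families were examined here as 75 protein-coding genes among the 9140 genes of the deposited expression matrix. They were chosen by a rule on gene symbols, set with earlier results of these data known. The symbols cover the SOX, POU, TALE homeobox (Meis and Pbx), nuclear factor I (NFI), ZEB, E protein, TEAD, forkhead, Krüppel-like (KLF), RFX, nuclear receptor, PAS, MEF2, RUNX, STAT, BCL11/CUX/SATB, T-box and GATA families, with Sox9 left out. The rule itself reads symbols and no measured value. The same symbols match 275 protein-coding genes of the GENCODE M21 annotation of the mouse, of which 200 were not analysed here, among them Sox2, Sox4, Sox11 and Pou3f2. All 69 genes with other homeobox symbols (Hox, Dlx, Emx, Otx, Nkx and others) and all 8 LIM homeobox genes were among those 200. Families were represented unequally: all 4 NFI, all 4 TEAD, both ZEB and all 3 E protein genes were measured, but 2 of 18 SOX, 3 of 16 POU and 11 of 44 forkhead genes. Of the 75 genes, 1 (Pou3f3) had no annotated transcript with more than 1 exon, against 24 of the 200. Over all protein-coding genes of the annotation, 1 of 8745 in the matrix and 1343 of 13283 not in it had a single exon. Gatad1, Gatad2a, Gatad2b, Nr2c2ap and Runx1t1 match the symbols but are cofactors or partner proteins and not members of the DNA-binding families they are filed under.

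Most of these families share a DNA-binding domain that reads short sequences in promoters and enhancers, and related members often compete for the same sites. In the embryonic hippocampus, combinations of them are known to set regional identity (Nr2f1, Nr2f2, Meis and Pbx genes). Tead and Zeb genes, among others, are known to hold progenitors in a dividing state. NFI genes and Stat3 are known to direct the switch from neurons to glia. RFX factors are best known for switching on genes of cilia, and Foxo3 and the nuclear receptors Nr1d1 and Nr1d2 for quiescence, metabolism and the circadian clock.

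The cells were primary neural stem and progenitor cells from the dentate gyrus of the hippocampus of late mouse embryos. The sample labels give a later embryonic day than the published methods. Cultures were kept dividing with EGF and FGF2 (day 0) or collected 2, 4 and 8 days after both were withdrawn. The libraries were droplet libraries that count RNA 3′ ends with unique molecular identifiers (UMIs, each marking 1 captured molecule). The Kmt2d+/βgeo group carried 1 gene-trap allele of the histone methyltransferase gene Kmt2d, Mll2Gt(RRt024)Byg, a mouse model of Kabuki syndrome. The wild-type group is labelled with the strain C57BL/6J and a wild-type allele, whereas the protocol describes Kmt2d+/+ littermates of crosses between Kmt2d+/βgeo males and C57BL/6J females. With 1 library for each genotype and day, no test was run, and a genotype cannot be told apart from an embryo, a culture or a library.

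The 8 libraries held 2534 to 4900 cells. Median UMIs per cell on the matrix genes ran from 6989 to 11229.5 in 7 libraries and was 3972 in the Kmt2d+/βgeo library of day 8. Pairs of libraries shared 0 to 10 cell barcodes, at most 0.311% of the smaller library, and the day 4 libraries shared 2. The library labelled Kmt2d+/βgeo, day 4, stood apart from its group. Over the 55 members with a mean of at least 0.1 in every library, its root mean square log2 difference from the wild-type library of day 4 was 0.098, and its next nearest library differed by 0.440. On days 0, 2 and 8 the genotypes differed by 0.409, 0.396 and 0.483. Whether its genotype label is right was not tested. The main time comparison below, day 8 against day 0, does not use it. Kmt2d itself had a log2 ratio between genotypes of 0.30 at day 0, -0.21 at day 2, 0.32 at day 4 and 0.27 at day 8, so its tag counts did not mark the labelled genotype. Its 3′ tags need not report the trapped allele.

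Levels below are mean normalised counts per cell, which are UMIs scaled to the same total in every cell. They were not scaled for transcript length, so levels are compared between libraries and not between genes. A mean over a library does not separate fewer expressing cells from less RNA per cell. A log2 ratio is that of 2 such means, and a gene was called higher or lower where the ratio was at least 1 in size and either mean was at least 0.1. Bracketed 95% intervals are of the ratio of summed UMIs and cover counting error only. Because that ratio weights deep cells more, the ratio of means lay outside its interval in 79 of 666 comparisons of a member.

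Meis1, Meis2 and Nr2f2 were called between the genotype labels on days 0, 2 and 8. Rfx2 and Rfx3 were called higher at day 8 in both genotypes. For these 5 members, the sequence just upstream of a RefSeq start is shown before the values. Each is the 250 bases before the RefSeq start on GRCm38.p6, 5′ to 3′ on the gene's own strand, which is the minus strand in all 5. The regions are chr11:19018970-19019219 for Meis1, chr2:116064620-116064869 for Meis2, chr7:70366747-70366996 for Nr2f2, chr17:56831009-56831258 for Rfx2 and chr19:28011167-28011416 for Rfx3. The Meis2 window lies wholly inside the deposited span of that gene (chr2:115863064-116065839), so it precedes an internal start. Capitals mark matches, on either strand, to CCAAT (the NF-Y box), GGGCGG (the GC box), TGACAG (the MEIS core), AGGTCA (the nuclear receptor core), GGAATG (the TEAD core) and GTTGCCA (an RFX core). Matches may overlap, as GC boxes do in Rfx2.
Meis1: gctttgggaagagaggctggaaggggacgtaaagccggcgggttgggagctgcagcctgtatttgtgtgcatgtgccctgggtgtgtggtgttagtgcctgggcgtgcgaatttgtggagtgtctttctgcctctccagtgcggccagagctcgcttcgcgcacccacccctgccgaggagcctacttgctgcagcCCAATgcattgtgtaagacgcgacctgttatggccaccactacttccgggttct
Meis2: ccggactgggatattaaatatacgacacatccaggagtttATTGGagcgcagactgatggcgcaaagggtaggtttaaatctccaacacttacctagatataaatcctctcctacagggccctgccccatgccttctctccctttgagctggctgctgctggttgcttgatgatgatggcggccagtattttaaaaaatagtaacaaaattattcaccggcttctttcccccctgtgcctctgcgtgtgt
Nr2f2: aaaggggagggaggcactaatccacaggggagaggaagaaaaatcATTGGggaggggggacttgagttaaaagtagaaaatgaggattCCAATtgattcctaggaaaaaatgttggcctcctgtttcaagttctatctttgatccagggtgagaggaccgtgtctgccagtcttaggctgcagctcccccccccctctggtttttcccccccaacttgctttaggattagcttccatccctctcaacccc
Rfx2: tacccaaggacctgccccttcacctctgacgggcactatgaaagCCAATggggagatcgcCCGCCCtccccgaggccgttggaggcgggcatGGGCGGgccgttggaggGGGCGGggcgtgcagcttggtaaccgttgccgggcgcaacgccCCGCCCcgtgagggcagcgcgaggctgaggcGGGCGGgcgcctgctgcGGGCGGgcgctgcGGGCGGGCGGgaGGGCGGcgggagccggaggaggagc
Rfx3: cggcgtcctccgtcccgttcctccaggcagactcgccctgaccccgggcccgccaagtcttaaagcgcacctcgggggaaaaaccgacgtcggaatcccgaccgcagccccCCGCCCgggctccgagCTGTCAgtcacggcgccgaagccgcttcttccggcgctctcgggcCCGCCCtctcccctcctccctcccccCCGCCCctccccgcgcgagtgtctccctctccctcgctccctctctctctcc

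The 5 windows differed in composition. Rfx2 and Rfx3 were GC-rich (76% and 72.8%, with 30 CpG each), and Nr2f2 had 50% GC and 1 CpG. GC boxes were found in Rfx2 and Rfx3 and not in the other three, and CCAAT in all but Rfx3. Of the 75 members, 58 had a window in the RefSeq table, 16 of them with more than 1 start. Among the 58, CCAAT was in 25 (43.1%, against 36.38% of the 7256 windows of matrix genes), GGGCGG in 36 (62.07% against 62.36%) and GGAATG in 12 (20.69% against 9.84%). TGACAG was in 6 (10.34% against 13.01%), AGGTCA in 2 (3.448% against 9.413%) and GTTGCCA in 1 (1.724% against 3.087%). Median GC content was 62.4% for members and 60.8% for matrix genes. Tags from 3′ ends do not tell which start a cell used, and a match of letters is not evidence of binding.

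Of the 75 members, 71 had a mean of at least 0.1 in at least 1 library. Cux2, Tead4 and Nr3c2 were not among them. Across members, the median ratio of its highest to its lowest library was 2.29-fold.

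**Figure D1:**
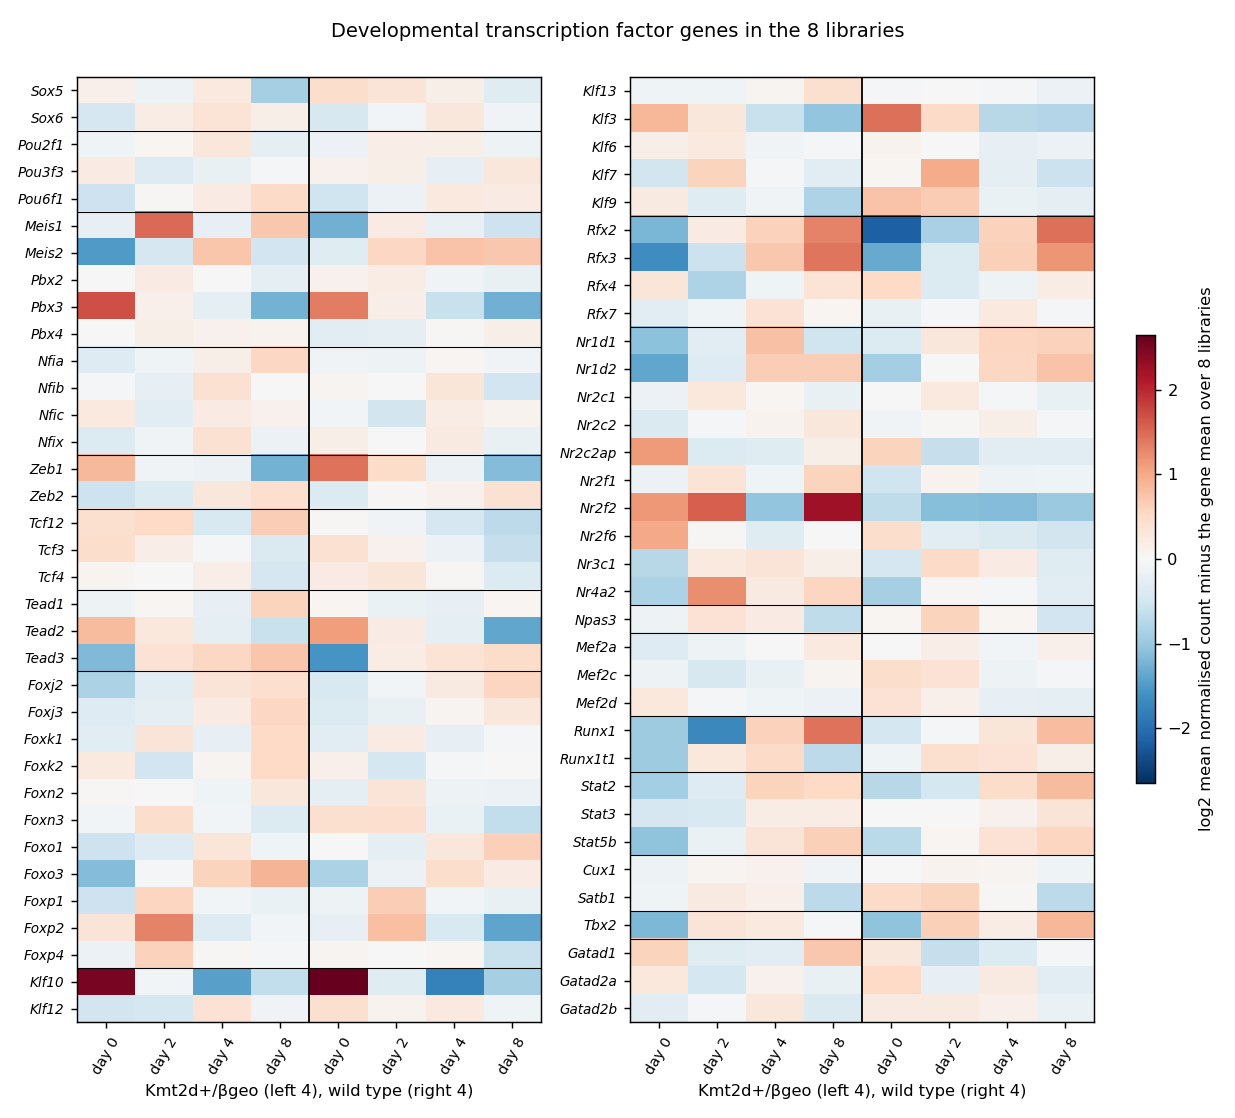
Colour shows the log2 mean normalised count of each of 69 members minus that gene's mean over the 8 libraries, with libraries ordered by genotype and day and horizontal lines between families. Rfx2, Rfx3, Foxo3 and Nr1d2 run from blue at day 0 to red at day 8 in both genotypes, Klf10, Klf3, Pbx3, Tead2 and Zeb1 run from red to blue, and Nr2f2 is red in the Kmt2d+/βgeo libraries of days 0, 2 and 8 only.

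With time after withdrawal, members moved in both directions. At day 8, 13 of 70 compared members were higher (18.6%) and 7 lower (10%) than at day 0 in Kmt2d+/βgeo, where 19% of all compared genes were higher and 13.9% lower. In wild type, 11 of 68 were higher (16.2%) and 9 lower (13.2%), with 16.3% and 10.9% of all genes. The median log2 ratio of members was 0.25 in Kmt2d+/βgeo (0.11 over all genes) and -0.04 in wild type (0.04 over all genes). Thinning to 3000 UMIs per cell left out 765 of the 2965 Kmt2d+/βgeo cells of day 8, those with fewer UMIs. With the cells kept, the Kmt2d+/βgeo median was 0.13 (0.06 over all genes). At a minimum mean of 0.5, the wild-type median was -0.35 (-0.04 over all genes). At day 4 under the Kmt2d+/βgeo label, 16 of 70 members (22.9%) were higher and 8 (11.4%) lower, with 14.8% and 6.61% of all genes, counts that rest on the library that stood apart. In wild type at day 4, 10 of 65 were higher (15.4%) and 5 lower (7.69%), with 11.9% and 6.6% of all genes. At day 2, 12 of 66 were higher (18.2%) and 4 lower (6.06%) in Kmt2d+/βgeo (10.7% and 6.74% of all genes), against 3 and 3 of 65 in wild type (8.08% and 5.56%; 2 and 4 from summed UMIs). On a difference of mean log2 values per cell, which compresses scarce genes, 0 to 2 members were called in each of these comparisons and 0 between genotypes.

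At day 8, the shares of members called in both genotypes were near those of all genes, and agreement in sign was lower. Of 67 members compared in both, 9 were higher in both (Rfx2, Rfx3, Foxo3, Nr1d2, Stat2, Stat5b, Runx1, Tbx2 and Tead3), 6 were lower in both (Klf3, Klf9, Klf10, Pbx3, Tead2 and Zeb1) and 0 were called in opposite directions. Over all 7572 genes compared in both, 996 were higher in both (13.2%, against 13.4% of the members) and 607 lower in both (8.02%, against 8.96%). Calls in opposite directions also numbered 0 over all genes. The sign was the same for 49 (73.1%), against 84.3% of all genes, and the log2 ratios correlated across these 67 genes with r = 0.93, against 0.905 across 7572 genes. Genes are not independent replicates, and this r is a description.

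**Figure D2:**
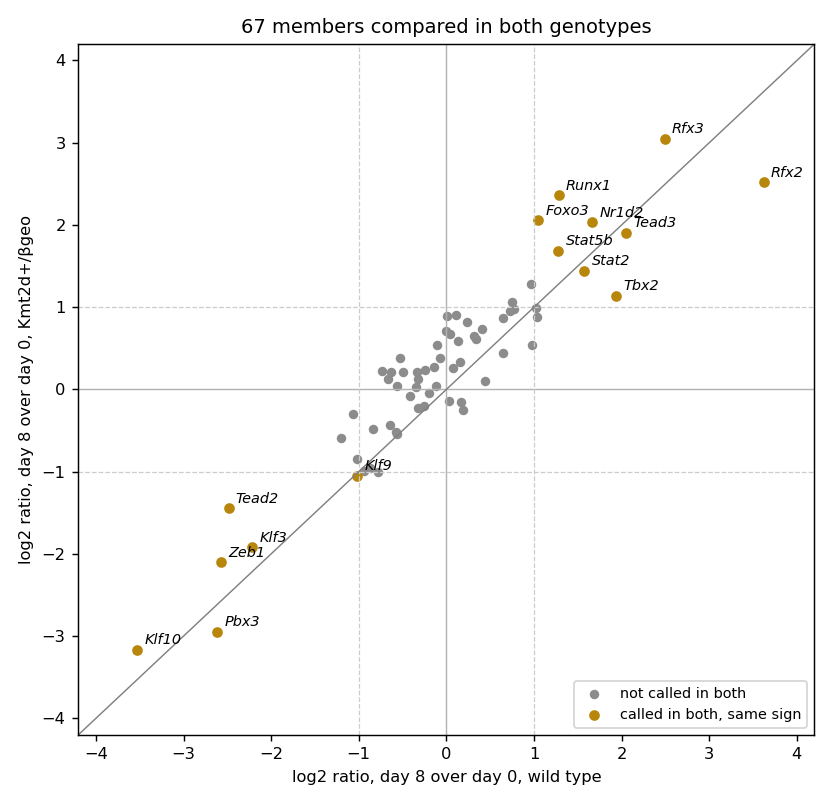
Each point is 1 of 67 members, with its log2 ratio of day 8 over day 0 in wild type (horizontal) and Kmt2d+/βgeo (vertical). Dashed lines mark ratios of 1 and -1, and the 15 named genes were called with the same sign in both, from Klf10 (-3.53 and -3.17) to Rfx2 (3.62 and 2.52).

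Of the 4 RFX genes measured, Rfx2 and Rfx3 rose and Rfx4 and Rfx7 did not reach the threshold at day 8. Rfx3 had 0.186, 0.386, 0.944 and 1.53 normalised counts at days 0, 2, 4 and 8 in Kmt2d+/βgeo. In wild type it had 0.229, 0.446, 0.899 and 1.29. It was higher at each later day than at the one before in both genotypes. In Kmt2d+/βgeo the day 4 value rests on the library that stood apart. The Rfx3 log2 ratio of day 8 over day 0 was 3.05 (2.90 to 3.11) in Kmt2d+/βgeo and 2.49 (2.39 to 2.57) in wild type. Thinned to 3000 UMIs per cell, the share of cells with an Rfx3 UMI was 6.48% and 7.49% at day 0 and 35.5% and 35.1% at day 8 in Kmt2d+/βgeo and wild type, and unthinned it was 20.2% and 23.6%, then 45.5% and 61.9%. No cell type lacking the gene was defined in these cultures, so no background share was available for this or any other member. Rfx2 had 0.0358, 0.0962, 0.125 and 0.205 in Kmt2d+/βgeo and 0.0185, 0.0453, 0.126 and 0.227 in wild type. Its day 8 log2 ratios were 2.52 (2.14 to 2.66) and 3.62 (3.17 to 3.74). Rfx4, which acts in neural tube and ciliary development, had its lowest levels at day 2. It had 2.45, 1.11, 1.82 and 2.50 in Kmt2d+/βgeo, a fall of log2 1.14 at day 2, and 2.84, 1.53, 1.79 and 2.23 in wild type, where the day 2 ratio of -0.89 was not called.

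Foxo3, a forkhead factor that restrains growth under low growth factor signalling, was the 1 of 11 forkhead genes higher in both genotypes at day 8. Its levels were 0.185, 0.400, 0.620 and 0.772 in Kmt2d+/βgeo and 0.231, 0.369, 0.571 and 0.477 in wild type. The log2 ratios were 2.06 (1.82 to 2.08) and 1.05 (0.94 to 1.17), and the wild-type value lay just over the threshold and was 0.95 in thinned cells. Foxo1 had ratios of 0.45 and 0.64 and was not called. Foxj2 was called higher in Kmt2d+/βgeo (1.29, but 0.94 in thinned cells) with 0.97 in wild type, and Foxn3 was called lower in wild type (-1.07) with -0.30 in Kmt2d+/βgeo. Foxp1 and Foxp2, factors of neuronal differentiation, had their highest levels at day 2: Foxp1 0.368 and 0.389, and Foxp2 0.219 and 0.152, in Kmt2d+/βgeo and wild type. At day 4 Foxp1 had 0.235 and 0.237.

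Of the STAT genes, which relay cytokine signals, Stat2 and Stat5b were called higher in both genotypes at day 8, and Stat3, the family member tied to astrocyte formation, in neither (0.64 in Kmt2d+/βgeo and 0.31 in wild type). Stat5b had 0.0633, 0.116, 0.166 and 0.204 in Kmt2d+/βgeo and 0.0803, 0.136, 0.173 and 0.195 in wild type, with log2 ratios of 1.69 (1.36 to 1.83) and 1.28 (1.11 to 1.47). Stat2 had 0.0422, 0.0629, 0.119 and 0.115, then 0.0475, 0.0576, 0.111 and 0.142, with ratios of 1.45 (1.05 to 1.65) and 1.58 (1.31 to 1.76). These are low counts: 153 summed UMIs lay behind the Stat2 value of Kmt2d+/βgeo at day 8.

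The remaining genes higher in both genotypes came from 4 families. Nr1d2, a repressor of the circadian clock, had 0.124, 0.253, 0.504 and 0.505 in Kmt2d+/βgeo and 0.171, 0.321, 0.469 and 0.542 in wild type, with ratios of 2.03 (1.89 to 2.20) and 1.66 (1.56 to 1.79). Tbx2, a T-box repressor, was already called higher at day 2 in both genotypes (1.53 and 1.70), and its day 8 ratios were 1.14 (1.03 to 1.43) and 1.94 (1.80 to 2.08). Tead3, which binds DNA for the Hippo pathway cofactors YAP and TAZ, had ratios of 1.91 (1.72 to 2.33) and 2.05 (1.78 to 2.36). Runx1 had 2.36 (2.16 to 2.74) and 1.28 (1.03 to 1.49), from 0.0370 and 0.0511 at day 0 to 0.190 and 0.124 at day 8.

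**Figure D3:**
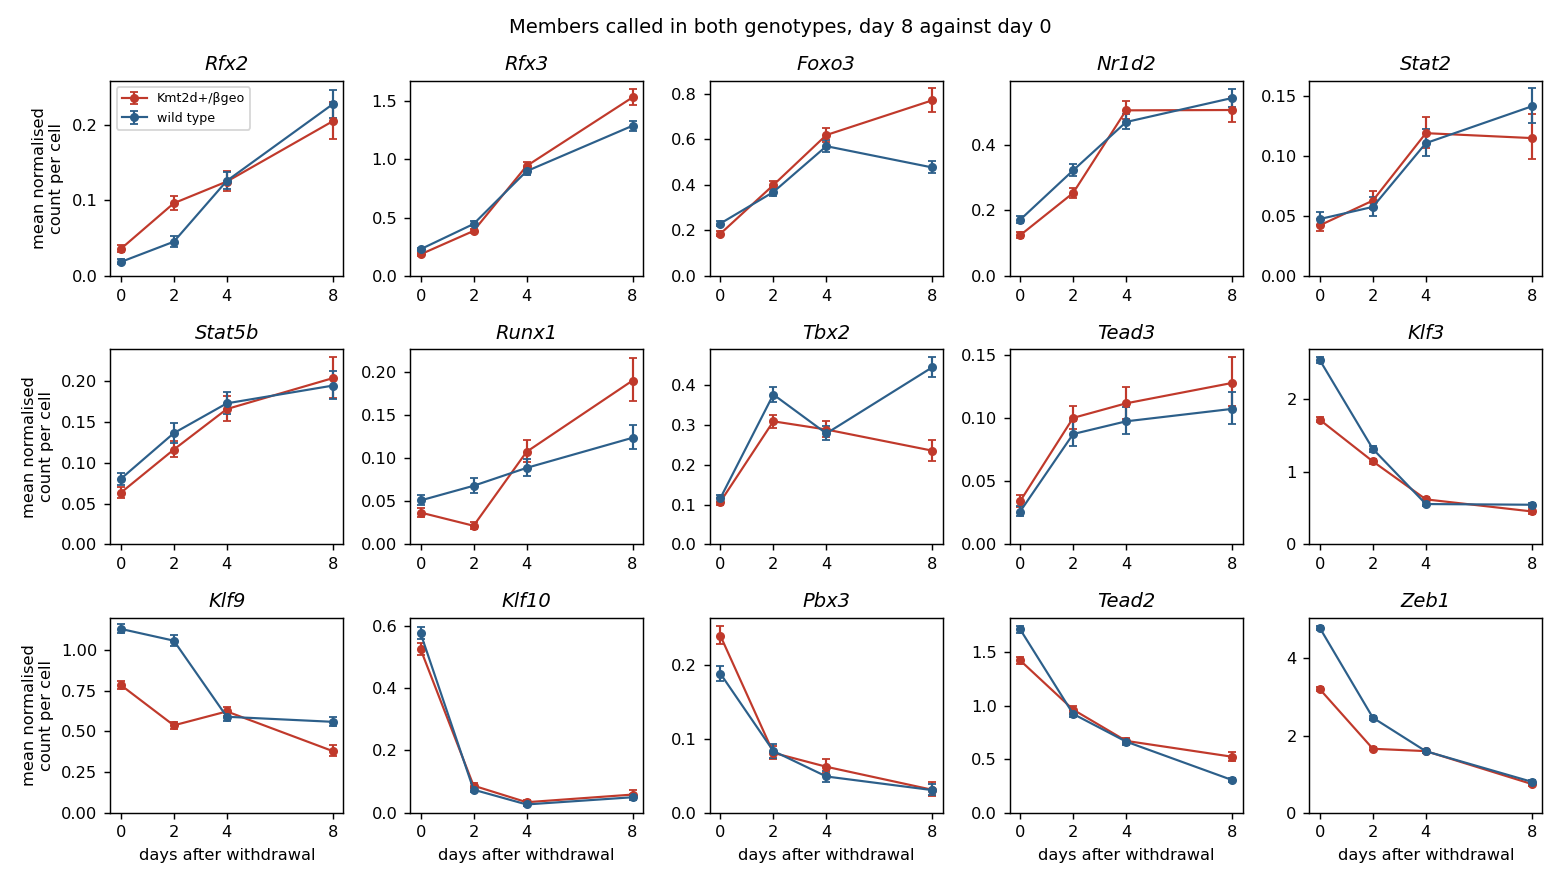
Mean normalised count per cell by days after growth factor withdrawal for the 15 members called with the same sign in both genotypes at day 8, 1 library per point. Bars are 95% intervals for counting error only, and the vertical axis of each panel starts at 0. Klf10 drops between days 0 and 2 (0.525 to 0.0869 in Kmt2d+/βgeo, 0.576 to 0.0741 in wild type), while Rfx3 climbs at every step. The day 4 points of Kmt2d+/βgeo come from the library that stood apart.

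Among the genes that fell, 3 of the 7 KLF genes did so in both genotypes. Klf10, an early response gene to growth factors and TGF-beta, had 0.525, 0.0869, 0.0339 and 0.0584 in Kmt2d+/βgeo and 0.576, 0.0741, 0.0267 and 0.0498 in wild type. It was lowest at day 4, with log2 ratios to day 0 of -2.59 and -2.96 at day 2, of -3.95 and -4.43 at day 4, and of -3.17 (-3.40 to -2.74) and -3.53 (-3.68 to -3.16) at day 8. Klf3, a repressor, fell more gradually, from 1.71 to 1.14, 0.619 and 0.453 in Kmt2d+/βgeo and from 2.53 to 1.31, 0.555 and 0.545 in wild type, ratios of -1.92 (-2.03 to -1.79) and -2.22 (-2.26 to -2.11). Klf9 was called lower at -1.05 and -1.02, and from summed UMIs it fell short of the threshold in both genotypes (-0.97 in Kmt2d+/βgeo). Klf6 (-0.20 and -0.25) was not called at any day, and Klf7, a factor of axon growth, had its highest levels at day 2, with 2.64 and 3.5 against 1.27 and 1.84 at day 0.

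Zeb1, a repressor that holds progenitors in an undifferentiated state, fell from 3.20 to 1.66, 1.60 and 0.745 in Kmt2d+/βgeo and from 4.79 to 2.46, 1.59 and 0.803 in wild type. Its day 8 log2 ratios were -2.10 (-2.23 to -2.04) and -2.58 (-2.65 to -2.52). Zeb1 UMIs were found in 61.1% and 77.0% of thinned cells at day 0 and in 20.4% and 22.1% at day 8. The unthinned shares were 92.4% and 97.1%, then 24.8% and 44.0%. Its relative Zeb2 had the opposite sign, 0.98 and 0.77, and was not called. Over the 8 libraries, the member profiles most like that of Zeb2 were Foxj2 (r = 0.973) and Rfx3 (r = 0.966), a description over 8 points that share a time course.

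Tead2, the TEAD gene of early neural progenitors, fell while Tead3 rose. Its levels were 1.42, 0.964, 0.672 and 0.524 in Kmt2d+/βgeo and 1.71, 0.924, 0.665 and 0.306 in wild type, with day 8 ratios of -1.44 (-1.61 to -1.39) and -2.49 (-2.59 to -2.39). Tead1 had 0.71 and -0.00343 and was not called in either. Pbx3, a TALE cofactor of homeobox proteins, had 0.239, 0.0809, 0.0621 and 0.0311, then 0.188, 0.0834, 0.0490 and 0.0306, with ratios of -2.94 (-3.54 to -2.61) and -2.62 (-3.24 to -2.55).

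Genes called in a single genotype at day 8 included Sox5 (not called from summed UMIs), Nr2f2 (1.09, but 0.86 in thinned cells), Nr4a2 (1.41), Foxj2 and Pou6f1 (1.06, but 0.99 in thinned cells) in Kmt2d+/βgeo, and Satb1 (-1.20), Foxn3, Tcf3 (-1.02) and Meis2 (1.02) in wild type. Several lay near the threshold, and the difference between genotypes was not tested. The members just inside it were Sox5 in Kmt2d+/βgeo and Klf9 in wild type, and just outside lay Meis2 in Kmt2d+/βgeo (0.99) and Nr1d1 in wild type (0.98).

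The NFI genes, central to the onset of glial formation, were detected in every library and none was called at any day or between genotypes. Nfia had 5.45, 6.37, 7.65 and 10.1 in Kmt2d+/βgeo and 6.42, 6.27, 7.14 and 6.44 in wild type, day 8 ratios of 0.89 and 0.00. Its most similar member profiles over the 8 libraries were Klf13 (r = 0.917) and Nr2c2 (r = 0.890). Nfib had day 8 ratios of 0.05 and -0.57, Nfix 0.22 and -0.34, and Nfic -0.16 and 0.17.

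None of the 3 E proteins, partners of the proneural bHLH factors, was called in both genotypes at day 8. Tcf4 had ratios of -0.52 and -0.58 at day 8, and Tcf3 -0.85 and -1.02, the latter called. Among the SOX and POU genes measured, Sox6 had 0.62 and 0.33, and Pou3f3 -0.26 and 0.19. No MEF2 gene was called (Mef2a 0.59 and 0.13, Mef2c 0.21 and -0.50, Mef2d -0.43 and -0.65). Cux1 stayed between 1.09 and 1.29 in all 8 libraries. Npas3, a PAS factor of hippocampal neurogenesis, had its highest levels at day 2 (3.73 and 4.28) and 1.79 and 2.01 at day 8. The glucocorticoid receptor gene Nr3c1 had 0.662, 1.33, 1.40 and 1.24 in Kmt2d+/βgeo and 0.818, 1.58, 1.3 and 0.883 in wild type, and was called higher at days 2 (1.00, at the threshold) and 4 (1.08) in Kmt2d+/βgeo, with 0.95 and 0.67 in wild type. Runx1t1, a corepressor, was called higher at the same days in the same group (1.22 and 1.44), with 0.53 and 0.50 in wild type. The day 4 calls of both rest on the library that stood apart, and the differences between genotypes were not tested.

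Between the genotype labels, 6 members were called on at least 1 day, of which Meis1, Meis2 and Nr2f2 were called on days 0, 2 and 8. The shares of all genes called on any day, or on these days together, were not counted. At day 0, 2 of 62 were higher in Kmt2d+/βgeo (Nr2f2 and Meis1) and 1 lower (Meis2), where 0.674% and 0.871% of all genes were called. At day 2, 3 of 66 were higher (those 2 and Nr4a2) and 1 lower (Meis2), with 1.68% and 1.15% of all genes. At day 8, 3 of 68 were higher (Nr2f2, Tcf12 and Meis1) and 2 lower (Meis2 and Nr1d1), with 2.06% and 2.81% of all genes. At day 4, 0 of 66 were called in either direction, and 0% of all 7459 compared genes. The standard deviation of the members' log2 ratios was 0.464 at day 0, 0.530 at day 2, 0.081 at day 4 and 0.613 at day 8, against 0.342, 0.381, 0.109 and 0.492 over all genes.

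**Figure D4:**
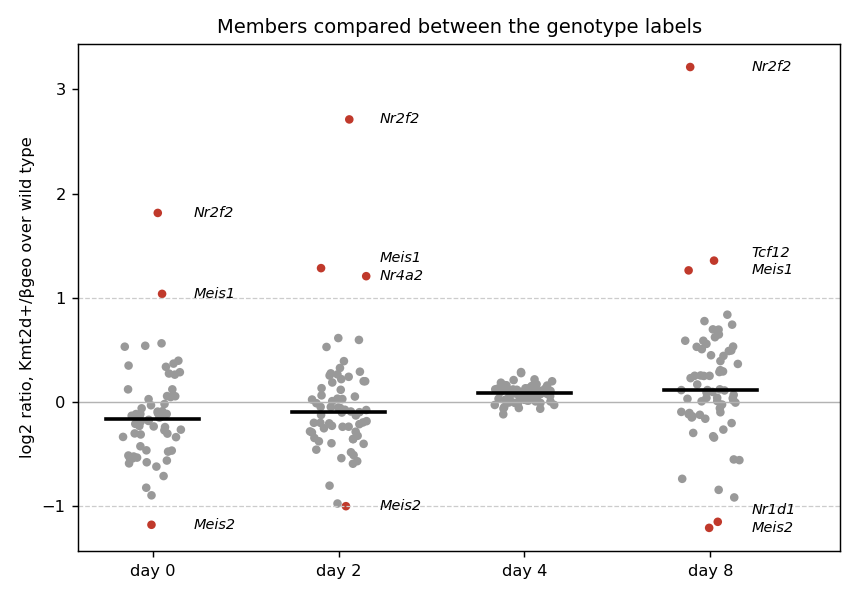
Log2 ratio of Kmt2d+/βgeo over wild type for each compared member at each day, 1 library per side. Red points are called (beyond the dashed lines at 1 and -1) and black bars are medians. The points of day 4 span a narrow band with no call, while Nr2f2 stands at 1.81, 2.71 and 3.21 at days 0, 2 and 8.

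Nr2f2 (COUP-TFII), an orphan nuclear receptor of caudal and ventral forebrain identity, showed the widest gap. It had 0.304 normalised counts at day 0, 0.413 at day 2, 0.0663 at day 4 and 0.645 at day 8 in the libraries labelled Kmt2d+/βgeo. In wild type it had 0.0864, 0.0631, 0.0617 and 0.0694. The Kmt2d+/βgeo libraries of days 0, 2 and 8 therefore all lay above all 4 wild-type libraries, and that of day 4 lay among them. The log2 ratios were 1.81 at day 0 (interval 1.52 to 1.80), 2.71 at day 2 (2.56 to 2.96), 0.10 at day 4 and 3.21 at day 8 (2.88 to 3.36). The call lower at day 4 against day 0 within Kmt2d+/βgeo (-2.20) rests on the day 4 library alone. In thinned cells, 8.96%, 12.9%, 2.60% and 15.7% of Kmt2d+/βgeo cells had an Nr2f2 UMI on days 0, 2, 4 and 8, and 3.03%, 2.12%, 2.16% and 2.21% of wild-type cells. Unthinned, the Kmt2d+/βgeo shares were 28.5%, 29.0%, 6.67% and 22.2%, and the wild-type shares 9.96%, 5%, 5.47% and 4.83%. Its paralogue Nr2f1 (COUP-TFI), which patterns the cortex and hippocampus, was not called at any day (0.37, 0.26, 0.02 and 0.69).

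Meis1 and Meis2, TALE homeobox paralogues that pair with Pbx proteins, went in opposite directions between the labels. Meis1 had 0.385, 1.28, 0.390 and 0.743 in Kmt2d+/βgeo on days 0, 2, 4 and 8 and 0.188, 0.525, 0.392 and 0.310 in wild type. Its log2 ratios were 1.04 at day 0 (0.93 to 1.14), 1.28 at day 2 (1.22 to 1.36), -0.00752 at day 4 and 1.26 at day 8 (1.10 to 1.37). Meis2 had 0.311, 0.641, 1.46 and 0.620 in Kmt2d+/βgeo and 0.706, 1.28, 1.47 and 1.44 in wild type. Its ratios were -1.18 (-1.31 to -1.15) at day 0, just past -1 at day 2 (-1.13 to -0.99, and not called in thinned cells), -0.0152 at day 4 and -1.21 (-1.35 to -1.14) at day 8. Both genes also moved with time in both genotypes: Meis1 was called higher at day 2 (1.73 and 1.48), and Meis2 at day 4 (2.23, resting on the day 4 library, and 1.06).

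**Figure D5:**
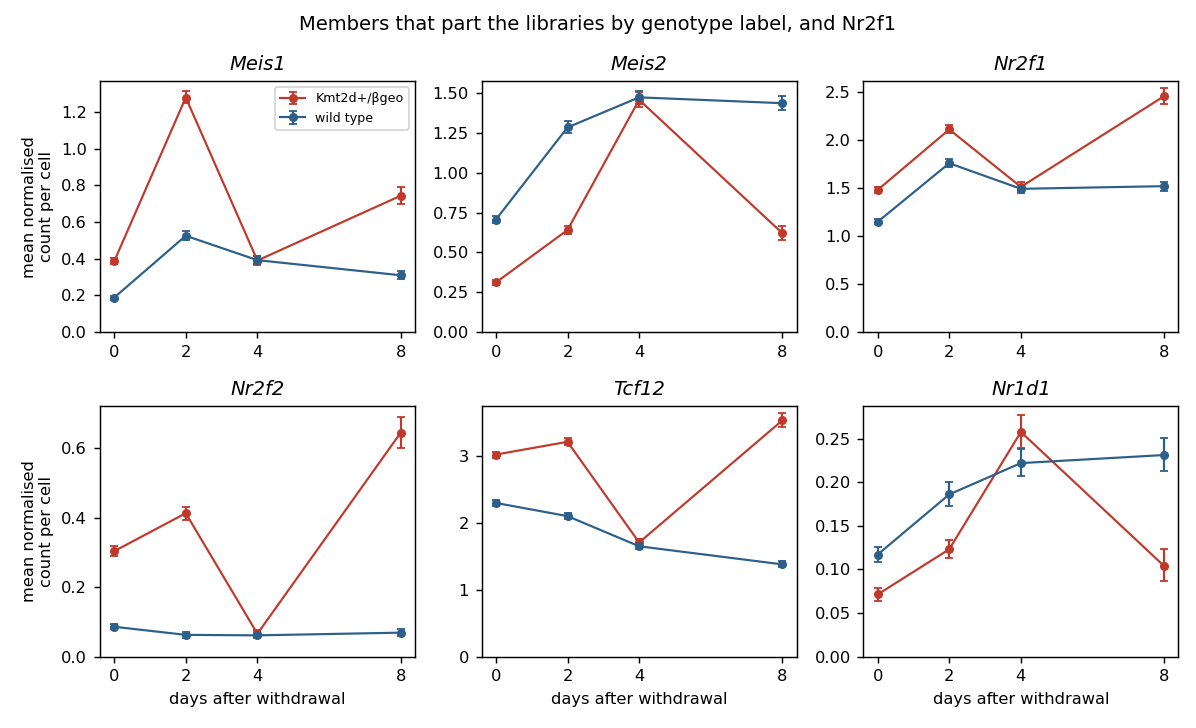
Mean normalised count per cell by days after withdrawal for 5 members called between the genotype labels and for Nr2f1, 1 library per point, with 95% intervals for counting error only and axes from 0. For Meis1, Meis2, Nr2f1, Nr2f2 and Tcf12 the intervals of the genotypes overlap at day 4 and not at days 0, 2 and 8, whereas for Nr1d1 they are apart on every day (0.258 and 0.222 at day 4).

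Tcf12, an E protein, had 3.02, 3.21, 1.71 and 3.53 in Kmt2d+/βgeo and 2.30, 2.10, 1.65 and 1.38 in wild type, and was called at day 8 (1.36, interval 1.23 to 1.36), with ratios of 0.39, 0.61 and 0.05 at the earlier days. Nr1d1, the clock repressor related to Nr1d2, had 0.0714, 0.123, 0.258 and 0.104 against 0.117, 0.186, 0.222 and 0.231, a day 8 ratio of -1.15 (-1.49 to -0.94). Nr4a2, an orphan receptor induced by activity and needed for dopamine neurons, was called at day 2 (1.21, interval 1.00 to 1.36), with 0.204 against 0.0886. In thinned cells its ratio was 0.96 and it was not called.

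In the Kmt2d+/βgeo libraries of days 2 and 8, cells with and without an Nr2f2 UMI had Meis1 UMIs at shares within counting error of each other. In thinned Kmt2d+/βgeo cells of day 8, a Meis1 UMI was present in 20% (exact binomial interval 15.9 to 24.6) of 345 cells with an Nr2f2 UMI and in 20.1% (18.3 to 22) of 1855 without. Meis2 was present in 18% (14.1 to 22.4) and 18.7% (17 to 20.6) of them. At day 2 the Meis1 shares were 34.4% (30.7 to 38.3) of 633 cells and 31.7% (30.3 to 33.1) of 4267. An Nr2f1 UMI was present at day 2 in 53.6% (49.6 to 57.5) of those with an Nr2f2 UMI and 47.2% (45.6 to 48.7) of those without. The Nr2f1 intervals overlapped at day 8, with 55.1% (49.7 to 60.4) and 52.5% (50.2 to 54.7). At day 0 they met only at their edges, with 42% (37 to 47.1) and 35.7% (34.2 to 37.2). Overlap of intervals does not show that shares are equal. Cells of 1 library are not replicates, and the intervals cover counting error only.

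Transcription factors outside these families were read from a list of 40 neural factors, of which 14 were measured and 13 compared over time. At day 8, 2 were higher in both genotypes, the astrocyte regulator Sox9 (2.15 in Kmt2d+/βgeo and 1.35 in wild type) and the stem cell marker Hopx (3.82 and 3.01). Lower in both were 4, namely the growth factor response genes Etv1 (-1.30 and -1.91), Etv4 (-4.19 and -5.08) and Etv5 (-2.7 and -4.39) and the oligodendrocyte lineage factor Olig2 (-1.90 and -3.15). Over all 7572 genes compared in both genotypes, 13.2% were higher in both and 8.02% lower in both. Between genotypes at day 8, 1 of 12 was higher, Hopx (1.76), where 2.06% of all genes were higher. At days 0, 2 and 4, 0 of 13 were called, with the shares of all genes given above.

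Marker levels of cell types moved with time alongside the members. Of 8 astrocyte markers 5 were measured, and their summed level was 16.2 and 8.20 at day 0, and between 101 and 252 in the 6 later libraries, most of it Apoe. From day 0 to day 8 in Kmt2d+/βgeo, Apoe went from 14.1 to 94.7, Gja1 from 0.162 to 2.31, Slc1a2 from 0.498 to 2.08, S100b from 0.799 to 0.917 and Aldh1l1 from 0.648 to 0.516. In wild type all 5 were higher at day 8, Apoe at 230 against 5.88, Gja1 at 3.41 against 0.170, Slc1a2 at 1.53 against 0.721, S100b at 1.62 against 0.578 and Aldh1l1 at 0.991 against 0.845. Gfap, Aqp4 and Aldoc were not analysed here. The 3 measured of 6 markers of dividing cells summed to 7.76 and 6.82 at day 0 and 0.891 to 1.09 later. The 6 measured of 9 progenitor markers summed to 68.3 to 141, most of it Vim and Fabp7, and these markers moved in different directions: from day 0 to day 8, in Kmt2d+/βgeo and wild type, Fabp7 went from 34.6 and 27.0 to 15 and 15.5, and Prom1 from 0.0238 and 0.0167 to 0.144 and 0.369. Only Map2 and Rbfox3 of 8 neuron markers and Olig2 of 8 oligodendrocyte markers were measured, and none of the microglial, endothelial, mural or ependymal markers. Rbfox3 had 0.00536, 0.0356, 0.170 and 0.113 at days 0, 2, 4 and 8 in Kmt2d+/βgeo and 0.0174, 0.0501, 0.176 and 0.0472 in wild type, and Map2 stayed between 2.85 and 4.00. At day 8 the astrocyte sum was 101 in Kmt2d+/βgeo and 238 in wild type, a gap made almost wholly by Apoe, and Slc1a2 had the reverse order. The part of cell type in the members' changes was not tested.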

How the data were processed

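Hippocampal progenitor cultures of 2 genotypes and 4 days were profiled by droplet single-cell RNA-seq, 1 library each. The authors quantified spliced and unspliced UMIs with Alevin (Salmon 1.3.0) on GRCm38, took spliced counts as expression, removed low-quality cells, outliers and doublets, dropped mitochondrial and rarely seen genes, and deposited log2 values of library-size scaled counts. The authors' deposited cell table gives total UMIs per cell as an estimated count. Seurat 3.2.2 is also named in the submitters' processing notes. Cells were not clustered or typed here.

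The deposited log2 values were turned back to normalised counts, which summed to 8707.1 per cell. Dividing by the worth of 1 UMI gave whole numbers within 0.01 UMI for 86.75% of nonzero values. These estimated UMIs were summed for intervals (exact Poisson, exact conditional for ratios, exact Clopper-Pearson for shares, 95%, counting error only), and thinned to 3000 per cell, which left out 23 and 765 cells of Kmt2d+/βgeo at days 0 and 8 and 4 of wild type at day 8. Ratios were computed over the whole matrix, and no test between groups was run, with 1 library per genotype and day. The scripts were tested on simulated counts. Python 3.11.15, numpy 2.4.6, scipy 1.17.1, pandas 2.3.3 and matplotlib 3.10.9 were used.

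The members and lists were chosen with earlier results of these data known. Named genes were 66 fixed symbols (42 measured), up to 10 per direction called in both genotypes at day 8, up to 5 per direction called between genotypes on each day, the member of each family with the highest mean, and the 2 profiles most like Nfia and Zeb2 (Sox11, also fixed, was not analysed here). Pou6f1, Rfx7, Tead4, Nr3c2 and the genes in the first closing paragraph that are outside this rule were named after their values were seen. Gatad2a and Nr2c2ap were named because they match the symbols without belonging to the families. Alternatives were pooled counts, a difference of mean log2 values, a minimum mean of 0.5 or none, and thinning. Promoter windows came from RefSeq on GRCm38.p6. A few members are counted but not reported by name here.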

Additional observations from a re-analysis of the deposited data

Results flagged for a closer look

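For 9 of the members reported by name, the day 8 to day 0 log2 ratio had opposite signs in the genotypes, with both counting intervals off 0. Counting all members, 10 of 67 met this rule (14.9%), against 541 of 7572 genes (7.14%). The difference between genotypes was not tested, with 1 library on each side, and none of these 18 values reached a size of 1. The ratio was positive in Kmt2d+/βgeo and negative in wild type for 8 of them: Klf7 (0.21 and -0.63), Klf12 (0.38 and -0.53), Klf13 (0.54 and -0.11), Nfix (0.22 and -0.34), Tcf12 (0.23 and -0.74), Mef2c (0.21 and -0.50), Gatad1 (0.13 and -0.33) and Foxk2 (0.27 and -0.14). Pou3f3 had the reverse (-0.26 and 0.19). The Kmt2d+/βgeo interval of Gatad1 began at 0.000618. On mean log2 values per cell, Klf13 alone of these 8 was higher at day 8 in Kmt2d+/βgeo (1.03 against 0.944 at day 0). The rest of the 8 were lower at day 8 in both genotypes on that scale, and so did not have opposite signs. The Kmt2d+/βgeo library of day 8 is the shallowest, with a median of 3972 UMIs per cell on the matrix genes, and its part in these ratios was not tested.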

How the results depend on the processing

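Comparisons are given in the order Kmt2d+/βgeo days 2, 4 and 8 against day 0, the same for wild type, then genotypes at days 0, 2 and 8. With summed UMIs in place of means of cells, and with cells thinned to 3000 UMIs, all 10 counts of called members stayed within 1.5-fold of the reported ones. A difference of mean log2 values, which compresses scarce genes by its construction, called 0, 0, 1, 0, 2, 2, 0, 0 and 0 members, against the reported 16, 24, 20, 6, 15, 20, 3, 4 and 5. The calls left were Zeb1 and, in wild type, Klf3, both lower. It moved the median of all genes in Kmt2d+/βgeo from 0.17 to 0.03 at day 4 and from 0.11 to -0.05 at day 8. The members' day 8 median of 0.25 in Kmt2d+/βgeo became 0.13 after thinning and -0.04 on that scale, and the -0.04 of wild type became -0.35 at a minimum mean of 0.5. A minimum mean of 0.5 tests fewer genes and called 7, 11, 10, 2, 7 and 10 members over time, and 1 and 2 between genotypes at days 0 and 2. Without a minimum, 7 were called between genotypes at day 2. Among the genes named by the fixed rules, no called ratio changed sign under these 5 alternatives. Changing the minimum mean leaves these ratios as they are, so only the other alternatives could show a change. Higher calls made up 65% of the day 8 calls in Kmt2d+/βgeo, 40% at a minimum of 0.5 and 55.6% after thinning, and in wild type 55%, and 30% at a minimum of 0.5. In wild type at day 2 the split of 3 higher and 3 lower became 2 and 4 from summed UMIs. At day 4 the genotypes had 0 calls under every alternative. No library could be left out of a group of 1. No analysis paired by day was run. At day 8 in Kmt2d+/βgeo, Klf10 rested on 79 summed UMIs and Pbx3 on 41.8.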
